A study of Mus musculus with 20 samples.

Results

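In mouse whole trachea, 10 secreted signalling genes of the transforming growth factor-β (TGF-β) superfamily were followed: the TGF-β ligands Tgfb1, Tgfb2 and Tgfb3, the activin subunits Inhba and Inhbb, the bone morphogenetic proteins Bmp2, Bmp4 and Bmp7, and the secreted antagonists Fst and Grem1. Members were all non-control probes whose gene name on the array equalled one of these symbols, which gave 12 of 41174 probes and 10 of 27962 array gene names. The study compared C57/Bl6 wild-type with Myd88KO mice, which lack the adaptor that carries Toll-like receptor and interleukin-1 receptor signals, and asked how this loss affects the trachea at rest and after epithelial injury. The tracheas formed 4 groups of 5 and were measured with 1 one-colour array each, namely uninjured wild-type (WT-control), uninjured Myd88KO (KO-control), wild-type injured (WT-injury) and Myd88KO injured (KO-injury). Injured mice received 2% polidocanol, a detergent that strips the surface epithelium, 3 days before collection, and no agent is named for the control mice. The labels give an age of 4 months for all groups, and the study's methods give a wider range of adult ages. According to the study's methods both sexes were used, and knockout mice were backcrossed to wild-type mice but bred as a colony separate from the wild-type colony, so that genotype and colony cannot be told apart.

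TGF-β superfamily ligands are dimers that bind paired type I and type II receptor kinases, which phosphorylate Smad proteins that then enter the nucleus and regulate transcription. TGF-βs and activins signal mainly through Smad2 and Smad3, and BMPs mainly through Smad1, Smad5 and Smad9. TGF-βs are secreted in a latent complex and are known in airways for matrix production and for restraint of epithelial growth, BMPs for airway patterning, and follistatin (Fst) and gremlin (Grem1) bind activins and BMPs respectively outside the cell.

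Signals are given as log2 intensity relative to the 75th percentile of the same array, so that negative values lie below that percentile, and a difference of 1 is a 2-fold change. Each value belongs to 1 probe, and levels of different probes were not compared. Testing was limited to the 26063 probes that the scanner software classed as well above background on 10 or more arrays, which included all 12 member probes. A difference was called when the adjusted p of limma (Benjamini-Hochberg over all tested probes within the comparison) was under 0.01. The study's methods describe the 5 tracheas of a group as biological replicates. On the probe for Myd88, the targeted gene, the signal was 1.94 to 2.28 in WT-control, 1.60 to 2.04 in KO-control, 2.36 to 2.80 in WT-injury and 1.54 to 2.09 in KO-injury. It was lower in injured Myd88KO than in injured wild-type tracheas by 0.77 ± 0.14 (SE, limma adjusted p = 0.00824) and did not differ by the test between uninjured groups (log2 difference -0.21, adjusted p = 1.00). Whether the probe lies in the deleted part of the gene is not given in the sources used here.

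The 5 KO-injury arrays were not alike. The mean signal of 5 myeloid marker genes (Cd68, Emr1, Itgam, Lyz2 and Csf1r) was 3.41 in replicate 2 and 3.30 in replicate 4, within the range of WT-injury (2.49 to 3.74), but 1.70, 1.80 and 0.84 in replicates 1, 3 and 5, against 1.15 to 1.48 in WT-control and 1.11 to 1.67 in KO-control. The mean of 3 club cell markers was 3.34 and 3.69 in replicates 2 and 4, and 6.96, 5.40 and 8.88 in replicates 1, 3 and 5, where WT-injury ranged from 2.99 to 4.04 and the uninjured groups from 7.96 to 8.77. The same split was seen for the neutrophil markers (mean signal 2.45 and 3.52 in replicates 2 and 4, -0.65, -2.13 and -3.19 in replicates 1, 3 and 5), for the basal cell markers (5.22 and 4.71, 3.58, 4.08 and 3.94) and, in the opposite direction, for the ciliated cell markers (0.87 and -0.12, 3.96, 2.38 and 2.88). Markers of several cell types thus moved together over these 5 arrays. The basal means were 3.41 to 5.25 in WT-control, 3.57 to 4.15 in KO-control and 3.85 to 4.88 in WT-injury. They therefore did not set injured from uninjured arrays apart. The ciliated means were 2.46 to 3.15, 2.62 to 2.76 and -0.44 to 2.50 in the same groups. The WT-injury arrays also varied in the ciliated mean, at -0.44 and -0.24 in replicates 1 and 5 and 1.93 to 2.50 in replicates 2 to 4. Neither the labels nor the study's methods say whether the epithelium was stripped to the same extent in each mouse, and the part of this in the results was not tested. Results for injured Myd88KO tracheas are therefore given array by array where they turn on these differences. Markers of skeletal muscle (mean signal 5.90 to 7.78 over the 20 arrays), adipocytes (4.29 to 6.52) and thyroid (-0.58 to 2.30) were also measured, so the samples held RNA of tissues around the trachea, and none of the 4 markers of any of these lists passed in either injury comparison. Their median differences after injury were -0.37, -0.25 and -0.10 in wild-type and -0.55, -0.80 and -1.24 in Myd88KO. The medians of all tested probes were 0.00 and -0.07. The part of these tissues in the results was not tested. After wild-type injury 2 of 3 club cell markers and 1 of 4 ciliated cell markers were called lower, and in Myd88KO 1 and 0. Over all tested probes 2.03% were called lower in wild-type and 0.242% in Myd88KO. None of the 3 basal, 4 smooth muscle, 4 fibroblast, 4 cartilage and 4 endothelial markers was called in either genotype, nor were the 2 tested neutrophil markers, whose mean was -0.61 to 3.05 in WT-control, -3.62 to -0.65 in KO-control, 2.26 to 6.46 in WT-injury and -3.19 to 3.52 in KO-injury. The neutrophil means of the uninjured genotypes thus did not overlap, by a narrow gap (-0.61 against -0.65), and neither marker was called between them. Taken singly, S100a8 overlapped and S100a9 did not, where 2.51% of all tested probes did not overlap.

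**Figure D1:**
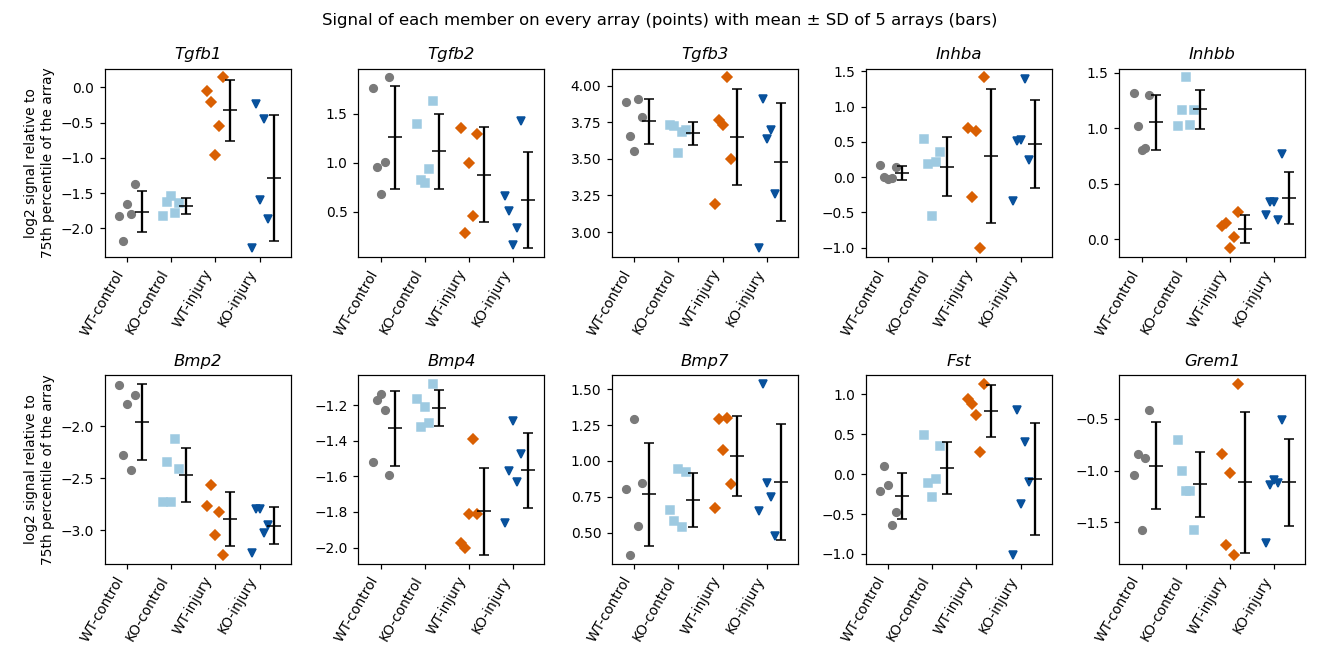
Signal of the 10 members on each of the 20 arrays, as log2 intensity relative to the array's 75th percentile. Points are arrays, bars are mean ± SD of 5 arrays, and each panel has its own scale. Tgfb1 and Fst lay higher in all 5 WT-injury than in all 5 WT-control arrays, Inhbb and Bmp2 lower, and the KO-injury values of Tgfb1 spread from -2.28 to -0.24.

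In wild-type tracheas, injury raised Tgfb1 2.71-fold and lowered Inhbb 1.95-fold and Bmp2 1.91-fold. These were 1 member called higher and 2 called lower of 10, where 3.24% of all tested probes were called higher and 2.03% lower. The groups did not overlap for 4 members (2 higher, 2 lower), against 12.6% of all tested probes. The median difference of the 10 members was -0.14, beside 0.00 for all tested probes. In Myd88KO tracheas 1 member was called, Inhbb, which was lower (0 of 10 higher). Over all tested probes 0.134% were called higher and 0.242% lower in that comparison. Inhbb and Bmp2 were the 2 members whose groups did not overlap, against 3.45% of tested probes. The median difference of the members in Myd88KO was -0.16, beside -0.07 for all tested probes.

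**Figure D2:**
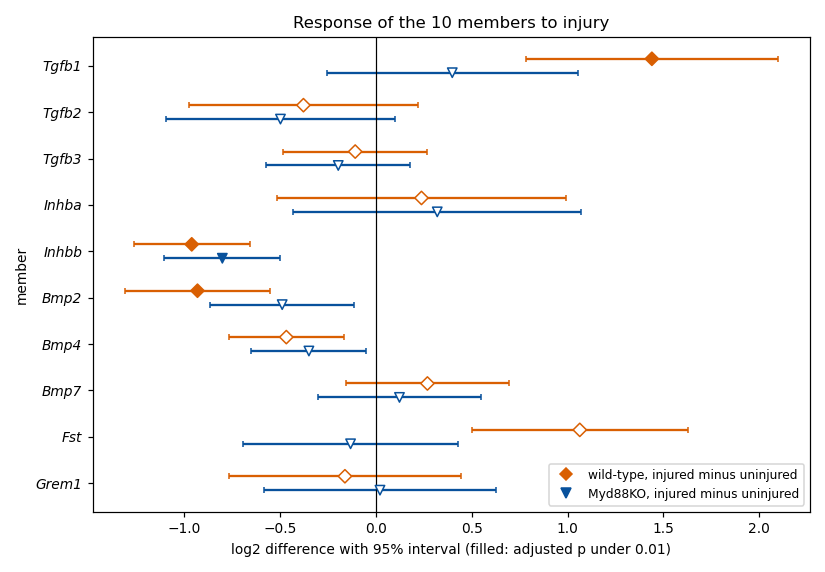
Log2 difference between injured and uninjured tracheas with its 95% interval from limma for each member (brightest probe) in wild-type (diamonds) and Myd88KO (triangles). Filled symbols mark an adjusted p under 0.01: Tgfb1 (1.44), Inhbb (-0.96) and Bmp2 (-0.93) in wild-type and Inhbb (-0.80) in Myd88KO.

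Tgfb1 encodes TGF-β1, the isoform best known from immune cells and wounds. Its probe (NM_011577) lay on chromosome 7 at 22478890 to 22478949 as listed in the files, whose genome build is not named. In WT-control replicates 1 to 5 the Tgfb1 signal was -1.83, -2.18, -1.65, -1.80 and -1.37. In WT-injury it was -0.05, -0.21, -0.96, -0.56 and 0.14, so every injured wild-type array lay above every uninjured one. The mean moved from -1.77 ± 0.29 to -0.33 ± 0.44 (SD, n = 5), a log2 difference of 1.44 ± 0.31 (SE, limma adjusted p = 0.00545). Tgfb1 was higher after injury within each of the 5 slides, by 0.70 to 1.97. The call was lost when any of WT-control replicates 1, 2 and 4 or WT-injury replicates 1, 2 and 5 was left out (limma adjusted p 0.0138 to 0.0191, difference 1.32 to 1.43).

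In Myd88KO tracheas the Tgfb1 signal was -1.82, -1.63, -1.54, -1.78 and -1.65 in the KO-control replicates. In KO-injury replicates 1 to 5 it was -2.28, -0.24, -1.59, -0.45 and -1.87. Replicates 2 and 4 lay within the WT-injury range, whereas replicates 1, 3 and 5 lay at or below levels of uninjured tracheas. The mean difference was 0.40 (95% interval -0.26 to 1.05, limma adjusted p = 0.521), and it was 0.14 without KO-injury replicate 2, 0.19 without KO-injury replicate 4 and 0.65 without KO-injury replicate 1. With array weights, which give less weight to arrays that vary more about the fit, it was 0.78 (limma adjusted p = 0.0549). By mean, WT-injury was highest for Tgfb1, followed by KO-injury (-1.29 ± 0.90), KO-control (-1.69 ± 0.11) and WT-control, and no pair of neighbours in this order passed the test. The injured Myd88KO group lay below the injured wild-type group by 0.96 ± 0.31 (SE, limma unadjusted p = 0.0063, adjusted p = 0.198). The response to injury itself was 1.04 ± 0.44 (SE) smaller in Myd88KO (limma unadjusted p = 0.0297, adjusted p = 0.447), so a difference between the genotypes in the Tgfb1 response was not established at the threshold used. With array weights the difference between injured groups was -0.51 (limma adjusted p = 0.556) and that between the responses -0.62 (limma adjusted p = 0.57). The difference between injured groups was -0.19 on the 3 slides scanned on one day and -2.12 on the 2 slides scanned on the other.

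Among the injured arrays, Tgfb1 was high where the myeloid markers were high. In wild-type tracheas 3 of the 5 myeloid markers were called higher after injury: Cd68, a macrophage lysosomal protein (log2 difference 3.27), Emr1, the F4/80 antigen (2.03), and Csf1r, the macrophage colony-stimulating factor receptor (1.55). Itgam had a difference of 2.57 (limma adjusted p = 0.0131) and Lyz2 one of -0.06. In Myd88KO none of the 5 was called, with differences of -0.23 to 1.71. Over all tested probes 3.24% were called higher after injury in wild-type and 0.134% in Myd88KO. Over the 10 injured arrays, the Tgfb1 signal and the mean of the 5 markers had a Pearson r of 0.941 (permutation p = 0.00035, adjusted p = 0.0035 over the 10 members) and a Spearman rho of 0.939 (permutation p = 0.00021, adjusted p = 0.0021). The permutations for every member exchanged the 10 arrays without regard to genotype or slide. Their p therefore also takes in the difference between the injured genotypes. Without the 2 arrays farthest from the median marker level r was 0.981. It was 0.946 over the 7 arrays with a mean marker level above 2, a split made after the values were seen, and 0.986 over the 6 injured arrays scanned on one day. No r is given for fewer than 6 arrays, so there is none within a genotype (5 injured arrays) or for the other scan day (4). The relation was computed for the myeloid list alone, and the neutrophil, basal, ciliated and club cell markers moved over the KO-injury arrays with it. In bulk tissue, fewer cells of a type and less RNA per cell cannot be told apart, and the part of myeloid cells in the Tgfb1 signal was not tested. Over all 20 arrays the probes of other genes whose pattern was most like that of Tgfb1 were Rhog (r = 0.99), Plekho2 (r = 0.98) and AK089315 (r = 0.96).

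**Figure D3:**
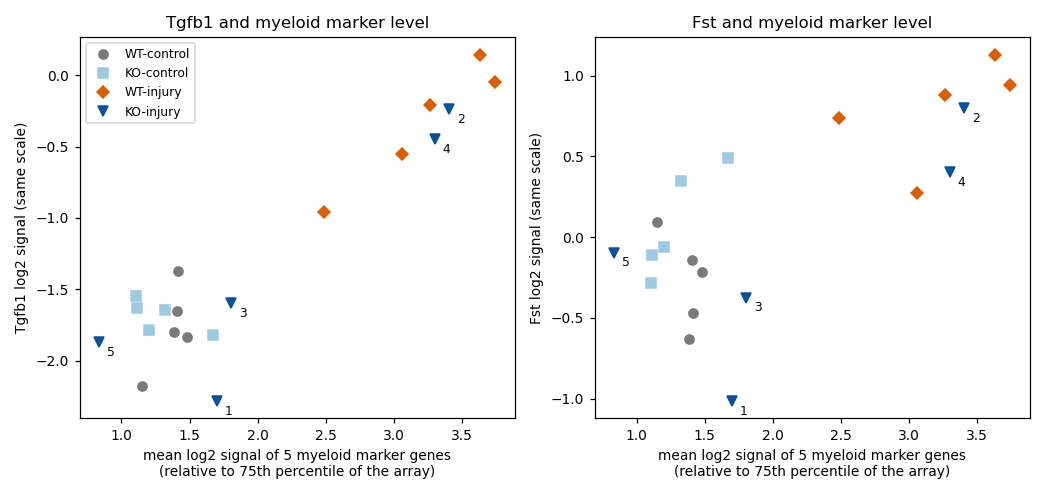
Tgfb1 (left) and Fst (right) signal against the mean signal of 5 myeloid marker genes, both as log2 intensity relative to the array's 75th percentile, for all 20 arrays. Numbers mark the KO-injury replicates. For Tgfb1, KO-injury replicates 2 and 4 (-0.24 and -0.45) lay among the WT-injury arrays and replicates 1, 3 and 5 beside the uninjured arrays. For Fst, KO-injury replicates 2 and 4 also lay within the WT-injury range, and replicate 1 (-1.01) lay below all uninjured arrays.

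Fst encodes follistatin, which binds activins with high affinity and keeps them from their receptors. Its single probe (NM_008046, chromosome 13, 111626922 to 111627594 in the files) is listed over 673 bases, in contrast to 60 bases for the other member probes. The Fst signal was -0.21, 0.10, -0.14, -0.63 and -0.47 in WT-control and 0.94, 0.88, 0.74, 0.27 and 1.13 in WT-injury. The groups did not overlap, but the difference of 1.06 (95% interval 0.50 to 1.63) had a limma adjusted p of 0.0136 and was not called. It was called with array weights (difference 1.18, limma adjusted p = 0.00152), with only the 2 groups in the fit (limma adjusted p = 0.00455), and without KO-injury replicate 1 or 2. In KO-control the signal was 0.49, -0.11, -0.29, -0.06 and 0.35. In KO-injury it was -1.01, 0.80, -0.37, 0.40 and -0.10, again highest in replicates 2 and 4, and the mean difference was -0.13 (95% interval -0.70 to 0.43). Among the 10 members Fst had the greatest difference between the injury responses, -1.20 ± 0.38 (SE, limma unadjusted p = 0.0053), which did not pass after adjustment (adjusted p = 0.391). Fst in injured Myd88KO was 0.85 ± 0.27 (SE) below injured wild-type (limma unadjusted p = 0.00519, adjusted p = 0.185), with -0.35 on the slides of one scan day and -1.59 on those of the other. Over the 10 injured arrays its r with the myeloid marker mean was 0.789 (permutation p = 0.00678, adjusted p = 0.0339), with a rho of 0.867 (permutation p = 0.00203, adjusted p = 0.0102). The r was 0.809 without the 2 farthest arrays, 0.732 over the 6 arrays of one scan day, and 0.447 over the 7 arrays with a marker level above 2.

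Inhbb and Inhba encode the activin subunits βB and βA, whose dimers are activins B and A and which also form inhibins with an α subunit. Inhbb was measured by 2 probes (NM_008381) on chromosome 1, at 119276025 to 119276084 and at 119278359 to 119278418 in the files. On the brighter probe the signal was 1.32, 1.02, 0.81, 0.82 and 1.30 in WT-control, and 0.12, 0.15, -0.08, 0.02 and 0.24 in WT-injury. Every injured array lay below every uninjured one, and the difference of -0.96 ± 0.15 (SE, limma adjusted p = 0.000535) was -1.20 to -0.80 within slides. The signal in KO-control was 1.02, 1.17, 1.46, 1.03 and 1.16, and in KO-injury it was 0.22, 0.34, 0.34, 0.18 and 0.77. Unlike Tgfb1, Inhbb lay below every uninjured array in all 5 KO-injury arrays, including replicates 1, 3 and 5. Replicate 5 (0.77) was the highest of them, near WT-control replicates 3 and 4 (0.81 and 0.82) and above the highest WT-injury array (0.24). Over the 10 injured arrays the r of Inhbb with the myeloid marker mean was -0.596 (permutation p = 0.0659, adjusted p = 0.22). It was -0.008 without the 2 farthest arrays, and the rho was -0.285 (permutation p = 0.427, adjusted p = 0.703). The Myd88KO difference of -0.80 ± 0.15 (SE, limma adjusted p = 0.00843) was -1.12 to -0.40 within slides.

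The Inhbb call in Myd88KO was close to the threshold. It was kept in 4 of 20 fits with 1 array left out, namely those without WT-control replicate 1, 3 or 5 or KO-injury replicate 5, and its limma adjusted p over the 20 fits was 0.000484 to 0.0345 with a difference of -0.90 to -0.73. It was also lost without the filter on dim probes (limma adjusted p = 0.0152) and with only the 2 groups in the fit (limma adjusted p = 0.0774). The wild-type call held in all of these fits. The injury responses of the genotypes differed by 0.16 (95% interval -0.27 to 0.59). By mean, KO-control (1.17 ± 0.18) and WT-control (1.05 ± 0.25) were highest and KO-injury (0.37 ± 0.23) and WT-injury (0.09 ± 0.12) lowest, and neither of the 2 pairs of one treatment differed by the test.

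The dimmer Inhbb probe, well above background on 19 of 20 arrays, did not share this pattern. Its difference was -0.17 (95% interval -0.79 to 0.45) in wild-type and -0.43 (95% interval -1.06 to 0.19) in Myd88KO, so the fall of Inhbb rests on 1 of its 2 probes. Patterns most like the brighter probe over the 20 arrays were those of Slc25a18 (r = 0.95), C2cd4b (r = 0.95) and Slc35d3 (r = 0.95). Inhba was not called. It spanned -0.03 to 0.18 in WT-control and -1.01 to 1.42 in WT-injury, with differences of 0.24 (95% interval -0.52 to 0.99) in wild-type and 0.32 (95% interval -0.43 to 1.07) in Myd88KO. Its injured arrays thus lay both above and below the uninjured ones.

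Bmp2 and Bmp4 encode closely related BMPs, and Bmp7 a member of another BMP subgroup with its own preference for type I receptors. The Bmp2 signal (NM_007553, chromosome 2, 133302098 to 133302157 in the files) was -1.60, -2.27, -1.79, -2.42 and -1.70 in WT-control and -2.77, -2.56, -3.05, -2.83 and -3.24 in WT-injury. All injured wild-type arrays lay below all uninjured ones, and the difference was -0.93 ± 0.18 (SE, limma adjusted p = 0.00252). With only the 2 groups in the fit the call was lost (limma adjusted p = 0.0109). In Myd88KO, Bmp2 was -2.73, -2.35, -2.72, -2.12 and -2.41 in uninjured and -3.22, -2.79, -2.80, -3.02 and -2.94 in injured tracheas. These groups did not overlap either, but the difference of -0.49 (95% interval -0.87 to -0.11) was not called (limma unadjusted p = 0.0134, adjusted p = 0.14).

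Bmp2 was also the member with the lowest unadjusted p between uninjured genotypes. KO-control (-2.47 ± 0.26) lay 0.51 ± 0.18 (SE) below WT-control (-1.96 ± 0.36), with a limma unadjusted p of 0.0106 and an adjusted p of 0.491. It was lower on 4 of 5 slides, by 0.24 on average over the slides of one scan day and 0.92 over those of the other. The injured groups had a difference of -0.07 (95% interval -0.44 to 0.31), and the injury responses differed by 0.44 (95% interval -0.09 to 0.97). Probes most like Bmp2 over the 20 arrays were those of Reck (r = 0.83) and Ids (r = 0.80) and the array entry NAP046242-1 (r = 0.83).

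Bmp4 was not called in either genotype. Its signal was -1.33 ± 0.21 in WT-control and -1.80 ± 0.25 in WT-injury (SD, n = 5), and the groups overlapped because injured replicate 4, at -1.39, lay above the lowest uninjured array at -1.59. The differences were -0.47 (95% interval -0.77 to -0.17, limma adjusted p = 0.0375) in wild-type and -0.35 (95% interval -0.65 to -0.05, limma adjusted p = 0.188) in Myd88KO, and Bmp4 was lower on all 5 slides in both genotypes. With array weights the wild-type difference was called (-0.51, limma adjusted p = 0.00728). For Bmp7 the brighter of 2 probes gave differences of 0.27 (95% interval -0.16 to 0.69) in wild-type and 0.12 (95% interval -0.30 to 0.55) in Myd88KO. Its other probe gave 0.20 and 0.07, so the 2 probes agreed in direction and neither was called.

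Tgfb2, Tgfb3 and Grem1 were not called in either genotype. Tgfb2, the isoform best known from epithelium and mesenchyme of developing organs, had a difference of -0.38 (95% interval -0.98 to 0.22) in wild-type and -0.50 (95% interval -1.10 to 0.10) in Myd88KO, and was lower on 4 and on 5 of 5 slides. Its uninjured arrays differed among slides, with 1.77 and 1.88 in WT-control replicates 1 and 5 against 0.68 to 1.01 in the other 3, and with 1.40 and 1.63 in KO-control replicates 1 and 5 against 0.79 to 0.94. Slides 1 and 5 were those scanned together on one day. With scan day as a block the Tgfb2 adjusted p was 0.0867 in wild-type and 0.0496 in Myd88KO by limma. Tgfb3 differed by -0.11 (95% interval -0.48 to 0.27) and -0.20 (95% interval -0.57 to 0.18). Grem1, which binds BMP2, BMP4 and BMP7, differed by -0.16 (95% interval -0.77 to 0.44) and 0.02 (95% interval -0.58 to 0.62).

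Between genotypes no member was called. In uninjured tracheas 0 of 10 passed, where 0.384% of all tested probes were called, and 1 member, Bmp2, had an unadjusted p under 0.05, against 5.59% of probes. No member's uninjured groups were apart, against 2.51% of probes, and differences ranged from -0.51 (Bmp2) to 0.35 (Fst) with a median of 0.02. In injured tracheas 0 of 10 passed, against 0.38% of probes, and 2 members (Tgfb1 and Fst) had an unadjusted p under 0.05, against 12.5%. No member's injured groups were apart, against 1.96% of probes. When the injury responses of the genotypes were set against each other, limma called 0% of tested probes, and the same 2 members had an unadjusted p under 0.05, against 10.4% of probes. In Myd88KO injury 3 members (Inhbb, Bmp2 and Bmp4) had an unadjusted p under 0.05, all lower, against 19.5% of probes. With 10 members, these shares rest on 1 to 3 genes each.

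The rest of the pathway was described from 7 lists of 116 genes, of which 100 were tested. After wild-type injury 4 were called higher and 2 lower, shares close to the 3.24% and 2.03% of all tested probes, and the median difference of the 100 genes was 0.00. In the Myd88KO injury comparison 0 of 100 were called by limma, where 0.134% of all tested probes were called higher and 0.242% lower. In both genotype comparisons 0 of 100 were called, against 0.384% (uninjured) and 0.38% (injured) of all tested probes. The medians were -0.16 (Myd88KO injury), 0.05 (uninjured) and -0.11 (injured), beside -0.07, 0.04 and -0.03 for all tested probes. In the list of 20 known TGF-β target genes, 3 were called higher in wild-type, beside the same 3.24%, and the median was 0.52. Tgfbi, a TGF-β-induced matrix protein, differed by 1.61 ± 0.36 (SE, limma adjusted p = 0.0063), and Timp1, a metalloproteinase inhibitor, by 4.08 ± 0.65 (SE, limma adjusted p = 0.000792) on its brightest probe and by 4.28 and 4.29 on 2 others. Tnc, tenascin C, differed by 1.84 (limma adjusted p = 0.00818) and 2.28 on 2 probes and by 0.42 on another, which was not called.

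All 3 target genes were highest in replicates 2 and 4 among the KO-injury arrays, the replicates in which Tgfb1 was also highest. Tgfbi was 3.03, 5.08, 3.34, 5.07 and 2.94 in KO-injury replicates 1 to 5, against 2.98 to 3.48 in WT-control and 4.40 to 5.39 in WT-injury. Timp1 was 2.65, 5.09, 3.01, 6.09 and 1.41 in the same replicates, against 4.94 to 6.87 in WT-injury. Its uninjured range was 1.05 to 2.25 in WT-control and 0.90 to 2.58 in KO-control, so replicates 1 and 3 lay above all uninjured arrays. For Tgfbi and Timp1, replicates 2 and 4 thus lay within the WT-injury range and the other 3 replicates below it. Tnc on its brightest probe was -1.08, 1.17, 0.12, 1.48 and -1.64. Replicates 2 and 4 lay above its WT-injury range (0.26 to 1.13). The differences of the target genes in Myd88KO were 0.52 for Tgfbi, 2.06 for Timp1 and 0.85 for Tnc, none of them called. These genes are also induced by other signals in wounded and inflamed tissue.

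**Figure D4:**
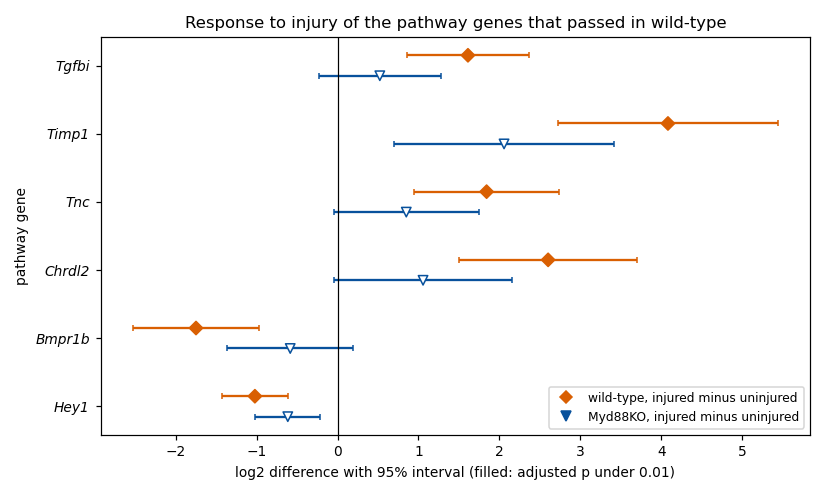
Log2 difference between injured and uninjured tracheas with its 95% interval from limma for the 6 pathway genes called in wild-type, in wild-type (diamonds) and Myd88KO (triangles). Filled symbols mark an adjusted p under 0.01. These genes were picked by their wild-type call, with differences there from -1.75 (Bmpr1b) to 4.08 (Timp1). None was called in Myd88KO, where 0.134% of all tested probes were called higher and 0.242% lower. Setting the Myd88KO response against the wild-type response gave no call for any of the 6 (limma adjusted p 0.469 to 0.599).

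On the BMP side, 1 of 9 tested BMP target genes was called in wild-type, Hey1, a transcriptional repressor that Notch signalling also induces, which fell by 1.02 on the log2 scale (limma adjusted p = 0.00228) from 2.35 ± 0.42 to 1.33 ± 0.11 (SD, n = 5). The median of the list was -0.18. Of 12 type I and type II receptors, Bmpr1b, a type I BMP receptor, was called lower (-1.75 ± 0.37, SE, limma adjusted p = 0.00489). It was -3.04 to -2.11 in WT-control. In WT-injury replicates 1 to 5 it was -5.95, -3.50, -3.86, -3.51 and -4.36, with replicate 1 well below the others. Of 13 other secreted antagonists, Chrdl2, a chordin-like protein, was called higher (2.60 ± 0.53, SE, limma adjusted p = 0.00359), from -3.19 ± 0.44 in WT-control to -0.59 ± 0.40 in WT-injury (SD, n = 5). In KO-injury Chrdl2 was -4.44, -0.78, -1.70, -0.45 and -2.73 and Bmpr1b was -2.86, -3.77, -2.55, -3.34 and -2.72, so that replicates 2 and 4 were highest for Chrdl2 and lowest for Bmpr1b. Hey1 did not follow this split, at 1.80, 2.04, 1.05, 1.61 and 1.65 in KO-injury replicates 1 to 5. Its highest value was in replicate 2 and its lowest in replicate 3, against 1.16 to 1.47 in WT-injury. None of 15 other ligands, 17 co-receptors, latent complex proteins and activators, or 14 Smads and Smad regulators was called in wild-type, and the medians of these lists were -0.15, 0.10 and 0.07. Each single call in a list stands beside the 3.24% of all tested probes called higher or the 2.03% called lower, and nothing more is read from counts of 1 in lists of 9 to 13 genes.

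The start regions of Tgfb1 and Inhbb are shown as the genomic context of the called members for which the RefSeq promoter table (build GRCm38.p6) has an entry. It held 6 of the 10 members (Tgfb1, Tgfb2, Inhba, Inhbb, Bmp4 and Grem1). Each sequence is the 250 bases before the annotated start, read 5′ to 3′ on the gene's strand. Tgfb1 is at chr7:25686752-25687001 on the + strand and Inhbb at chr1:119422249-119422498 on the - strand.
Tgfb1: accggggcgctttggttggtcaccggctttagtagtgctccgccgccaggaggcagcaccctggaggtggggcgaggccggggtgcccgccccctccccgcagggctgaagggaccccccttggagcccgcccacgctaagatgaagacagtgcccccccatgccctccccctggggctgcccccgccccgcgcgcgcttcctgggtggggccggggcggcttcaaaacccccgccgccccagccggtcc
Inhbb: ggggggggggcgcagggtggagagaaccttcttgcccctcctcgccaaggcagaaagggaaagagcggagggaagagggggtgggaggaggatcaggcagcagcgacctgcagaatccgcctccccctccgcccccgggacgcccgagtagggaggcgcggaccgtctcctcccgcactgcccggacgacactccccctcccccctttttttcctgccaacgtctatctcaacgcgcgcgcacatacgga
Capitals would mark a match on either strand to TGANTCA, the letters of an AP-1 element, and neither window held one. The windows of Tgfb2, Inhba, Bmp4 and Grem1 held none either. A match was present in 6.75% of 32851 windows of the same 250 bases, taken from the table's entries, so most windows hold none. The G and C content was 75.2% for Tgfb1 and 68.0% for Inhbb. No match says only that these letters are not in these windows.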

How the data were processed

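RNA of 20 whole tracheas was hybridised to 1 one-colour Agilent array each. The authors deposited the scanner output, in which the intensity of each spot had been background-subtracted by Feature Extraction 9.5.1.1 without scaling between arrays, and the same intensities as a table of values (ratio to the scanner value 0.995 to 1.005). Of 45018 spots per array, 1639 controls were left out, as were 1960 outlier-flagged values over the 20 arrays together. Spots of a probe were averaged, and the log2 intensity was expressed relative to the array's 75th percentile (intensity 494.6 to 971.9). Between 57.5% and 67.8% of spots were well above background, and the 5 arrays per group limit the precision. Correlations between arrays of a group were 0.923 to 0.990. Probes well above background on at least 10 of 20 arrays were tested, after the study's exclusion of transcripts present in under 50% of samples. Comparisons here used limma 3.58.1 in R 4.3.3 (with statmod 1.5.0), with all 4 groups in 1 fit and Benjamini-Hochberg adjustment within each of 5 contrasts, and called values at an adjusted p under 0.01. The steps were tested on simulated data.

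Each gene's main value came from its brightest probe. Genes named were the 10 members, pathway genes called in any contrast (at most 4 per list and contrast), the 3 probes most like each called member, Myd88, and marker lists. The members and lists were chosen with earlier results of these data known, and the relation to the myeloid markers was computed after the values were seen, with 100000 permutations. Probes were named through a mouse gene table (GRCm38.p6), by accession for 22951, by symbol for 6659 and by older symbol for 3109, and 8455 kept the array's name. Each of 5 slides held 1 array of every group under 1 replicate number, and slides were scanned on 2 days. In the uninjured comparison, same-numbered arrays deviated together in all 5 pairs (correlation 0.25 to 0.48). Alternatives were normexp background correction (offset 50), quantile normalization, no or a stricter filter, slide or scan day as a block, the value table, array weights, only the 2 groups compared, the one-way parametric test of the study's methods and leaving out each array. The 12 marker lists covered club, basal, ciliated, smooth muscle, fibroblast, cartilage, myeloid, neutrophil, endothelial, thyroid, skeletal muscle and adipocyte genes. Results that are not reported here were left out of the list counts.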

Additional observations from a re-analysis of the deposited data

Results flagged for a closer look

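Of 40 groups of 5 arrays (10 members in 4 groups), 2 held an array that stood apart from the other 4 by Dixon's ratio (critical value 0.71), where chance alone flags about 1 group in 20. Tgfb3 in KO-control replicate 3 was the lowest of its group at 3.54, against 3.68 for the nearest array (ratio 0.74). Inhbb in KO-injury replicate 5 was the highest of its group at 0.77, against 0.34 for the nearest array (ratio 0.723). On that array the club cell markers were the highest of the KO-injury group (mean signal 8.88) and the myeloid markers the lowest (0.84), and their part in the Inhbb value was not tested.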

How the results depend on the processing

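The wild-type Inhbb difference was called under all 10 alternatives and all 20 fits with 1 array left out (-1.02 to -0.89). The wild-type Tgfb1 difference was called under all 10 alternatives (1.16 to 1.46, lowest with normexp). It ranged from 1.32 to 1.60 with 1 array left out, 14 of these 20 fits calling it. Bmp2 in wild-type was -1.05 to -0.84 with 1 array left out, -0.86 with array weights and -0.61 with normexp (limma adjusted p = 0.008). It lost its call with the 2 groups alone and under the methods' one-way test (adjusted p = 0.0227), whose difference is the same -0.93. Inhbb in Myd88KO was -0.90 to -0.73 with 1 array left out and -0.87 to -0.76 under the alternatives. It lost its call without the filter, with the 2 groups alone and under the methods' one-way test (adjusted p = 0.116), whose difference is the same -0.80. Each of these settings left 0 of 10 members called in Myd88KO injury, and leaving out 1 array gave 0 to 1. Array weights called 5 members in wild-type, and leaving out 1 array gave 2 to 4. The genotype comparisons and the difference between responses had 0 members called in every alternative fitted. Over all probes, the 1372 calls of wild-type injury became 1049 to 2630 under the other settings and 665 to 1843 with 1 array left out, and the 98 of Myd88KO injury 0 to 2088 and 6 to 1075. Uninjured genotype calls moved from 100 to 46 to 179 and injured ones from 99 to 21 to 136 over the other settings.

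Directions turned only for member differences that were not called. Array weights gave 0.021 for Bmp2, -0.12 for Grem1 and 0.042 for Tgfb3 between injured genotypes, 0.018 for Bmp7 between uninjured genotypes, 0.17 for Fst in Myd88KO injury, and 0.17 for Tgfb3 in the difference between responses. Quantile normalization gave 0.0655 for this last value, and -0.017 for Grem1 between injured genotypes, where normexp gave -0.029 and the value table -4e-04. With 1 array left out, values spanned 0 between injured genotypes for Bmp2 (-0.15 to 0.0145), Grem1 (-0.18 to 0.24) and Inhba (-0.15 to 0.45). They did so between uninjured genotypes for Bmp7 (-0.14 to 0.093), Inhba (-0.0089 to 0.26), Tgfb1 (-0.0225 to 0.18) and Tgfb2 (-0.29 to 0.011), and in Myd88KO injury for Bmp7 (-0.048 to 0.22), Fst (-0.35 to 0.11) and Grem1 (-0.13 to 0.17). They did so in wild-type injury for Grem1 (-0.40 to 0.013), Inhba (-0.043 to 0.56) and Tgfb3 (-0.21 to 0.007), and in the difference between responses for Inhba (-0.24 to 0.36), Tgfb2 (-0.32 to 0.024) and Tgfb3 (-0.20 to 0.059). The causes were not tested.

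With the replicate block (slide), 3 members were called in wild-type injury, Tgfb1 with an adjusted p of 0.00946, and 1 in Myd88KO injury, and no member's call changed. Over all probes the block gave 1548 and 143 calls. Outside the uninjured comparison the paired numbers were not borne out in every pair, with correlations from -0.22 to 0.46. Dim probes, such as the second of Inhbb, limit what a small change can show.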
